A study of Mus musculus with 116 samples.

Results

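SVEC cells with high levels of transcripts from the G2 phase and mitosis were compared with SVEC cells with low levels of the same transcripts. SVEC is a mouse endothelial line, and each library held the RNA of 1 cell. The groups were chosen on a measured score, the mean of log2(CPM + 1) over 10 genes: Top2a, Ccnb1, Cdk1, Cenpf, Ube2c, Hmmr, Tpx2, Aurka, Plk1 and Mki67. CPM is the count of a gene scaled to 1000000 gene counts per library. Of 48 SVEC single-cell libraries, 42 held at least 100000 gene counts and were scored. The 14 highest libraries are called G2/M-high and the 14 lowest G2/M-low, so that 28 libraries of the 116 in the series were compared. The 14 libraries between them entered neither group and are called middle.

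The series applied nanoSPLITS, in which a droplet of lysate is divided so that 1 portion of a cell goes to RNA sequencing and another to protein measurement. The protein portion was not analysed here. All SVEC libraries share 1 genotype as far as the labels say, were grown in standard culture and received no treatment, and the 2 groups were set apart by the score and not by a label. The labels name no clone, culture, passage or cell cycle stain, and no cell was synchronised according to them. A second line, C10, labelled as alveolar type II epithelium, gave 48 single-cell libraries, of which 45 held at least 100000 gene counts.

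A dividing cell copies its DNA in S phase, prepares for division in G2 and separates its chromosomes in mitosis. Genes whose products act in G2 and mitosis are switched on late in the cycle. Their promoters are held by the MuvB complex, which represses them together with p130 or p107 and E2F4 in resting cells and activates them later in the cycle together with B-Myb and FoxM1. Cyclin B with Cdk1 drives entry into mitosis, and the anaphase-promoting complex with its activator Cdc20 then marks cyclin B and securin for destruction.

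No test was possible. Each library is 1 cell, no separate cultures are named, and the groups were chosen on values from the same libraries. The differences below are therefore described by their size, and SDs are over 14 cells. A gene is called higher or lower where the means of log2(CPM + 1) differed by at least 1 and the high library was the higher one in at least 75%, or at most 25%, of the 196 high-low pairs of libraries (ties counted equally to each side). That percentage is called the separation. Exact intervals treat each read as an independent count and leave out the spread between cells. PCR copies were counted as reads, so the intervals are too narrow even for counting error.

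The score ran without a gap through the 42 libraries. It was 5.36 to 10.06 (median 7.65) in the high group, 1.69 to 5.10 in the middle and 0 to 1.60 (median 1.02) in the low group. The last high library had 5.36 and the first library outside the group 5.10, and at the low edge these were 1.60 and 1.69. High libraries had counts for 6 to 10 of the 10 genes, and low libraries for 0 to 3.

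Depth differed little between the groups, and the number of genes seen differed more. High libraries held 197812 to 1894402 gene counts (median 520978) and low libraries 130944 to 2103453 (median 500172). Genes with a count numbered 2508 to 7844 (median 4739.5) in the high group and 1283 to 6392 (median 4266) in the low group, and 4041.5 against 3663 at the median after each library was thinned to 100000 counts. The reads that did not align made up 15.0% to 59.8% (median 31.3%) of high and 24.0% to 71.2% (median 37.7%) of low libraries, and mitochondrial genes took 3.22% and 4.15% of gene counts at the median. Over the 42 libraries the score had a Spearman correlation of 0.325 with genes detected and 0.167 with total counts. The part of genes detected and of unaligned reads in the results was not tested; values with each of them taken into account stand beside the counts of genes below.

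Markers of endothelium were largely absent at this depth, which goes against the label of the line. Of 20 endothelial markers, 11 had no count in any of the 42 libraries, among them Kdr, Tie1 and Cldn5. Pecam1 had counts in 5 libraries, Cdh5 in 1 and Plvap, the most frequent, in 16. Summed over the list, endothelial markers reached 0 to 57.5 CPM in high and 0 to 124 CPM in low libraries. Of 18 alveolar and airway epithelial markers, 11 were at 0 in every library and the most frequent was seen in 9 (summed level 0 to 167 CPM in high and 0 to 358 CPM in low libraries). Of 4 transcripts abundant in C10, 2 were at 0 and the most frequent was seen in 6 libraries, summing to at most 10.6 CPM in high and 45.6 CPM in low libraries. None of these lists separated the SVEC groups. The markers did not bear out the C10 label either. Of its 45 libraries, Sftpc, Nkx2-1 and Krt8 had counts in 0, and Cdh1 in 24. Among endothelial markers, Plvap had counts in 34 C10 libraries, Pecam1 in 12, Cdh5 in 1 and Kdr in 0.

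The 10 genes that chose the groups are described without reading anything from them. Ube2c, the ubiquitin-conjugating enzyme of the anaphase-promoting complex, was at 99.0 to 2516 CPM (median 931) in high libraries and had counts in 1 low library. Ccnb1, cyclin B1, was at 153 to 4619 CPM in high libraries and had counts in 4 low libraries. Cdk1 had counts in 13 high, 14 middle and 9 low libraries and medians of 1101, 765 and 90.8 CPM. Cenpf, a kinetochore protein, had counts in 11 high libraries and in no middle or low library. Hmmr, which binds spindle microtubules, had counts in 10 high, 2 middle and 0 low libraries. Differences of mean log2(CPM + 1) ran from 4.94 for Cdk1 to 9.11 for Ube2c, with Top2a, the topoisomerase that untangles sister chromatids, at 7.71 and Mki67 at 5.91.

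Across the transcriptome, genes outside the 10 were mostly higher in G2/M-high cells. Of 6806 genes with a count in at least 25% of the 42 libraries (11 or more), 288 were called higher (4.23%) and 33 lower (0.485%). The difference was above 0 for 68.2% of the genes, and its median over all genes was 0.51, so that 89.7% of the calls were on the higher side. With the score taken as its residual on depth and genes detected, 173 genes were called higher and 172 lower, 50.1% on the higher side, and the all-gene median was -0.12. With libraries of at least 200000 counts only, the calls were 180 higher and 68 lower. With libraries of over 55% unaligned reads left out, they were 257 and 47.

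**Figure D1:**
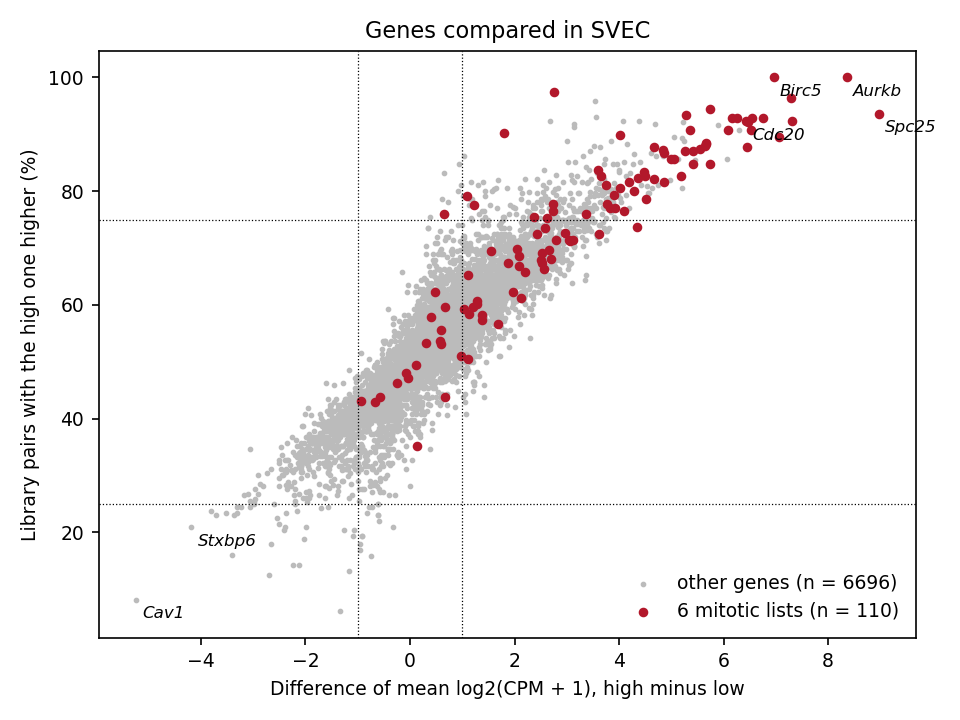
Each point is 1 of the 6806 SVEC genes compared: the x axis gives the difference of mean log2(CPM + 1), high minus low, and the y axis the share of high-low library pairs in which the high one was higher, in %. Dotted lines mark the limits of a call (1 and -1; 75% and 25%). Members of 6 mitotic gene lists (red, 110) lie mainly in the upper right, where Aurkb and Birc5 reach 100%, and Cav1 lies farthest to the left at -5.25.

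Genes of mitosis outside the score made up a large block of the higher calls. Of 141 members of 6 lists (mitotic cyclins and kinases, the anaphase-promoting complex, kinetochore and centromere, kinesins and spindle, cytokinesis, and condensin and chromatin), 110 passed the filter on detection, 59 were called higher and 0 lower. That is 53.6% against 4.23% of all genes. The filter needed 11 libraries, so members seen almost only in the 14 high libraries could pass it, and the share is not independent of the groups. With counts required in at least 50% of libraries, 30 of 58 members and 193 of 3520 genes were called higher. Without a filter these were 66 of 137 and 313 of 14922. The median difference of the 110 was 3.05 against 0.51 over all genes, 2.88 with the 8 members at 0 in every low library set to a floor of 3 counts, and 2.71 over all 141. Their mean log2(CPM + 1) per library was 2.76 to 7.08 in the high, 1.70 to 4.43 in the middle and 0.94 to 2.89 in the low group. In 13 of 14 high libraries it was above every low library. Its Spearman correlation with the score was 0.896 over the 42 libraries and 0.666 within the 14 middle ones, and 0.472 with genes detected; the lists and the score share the library total. Over the settings tried, 30 to 72 members were called higher and none lower.

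**Figure D2:**
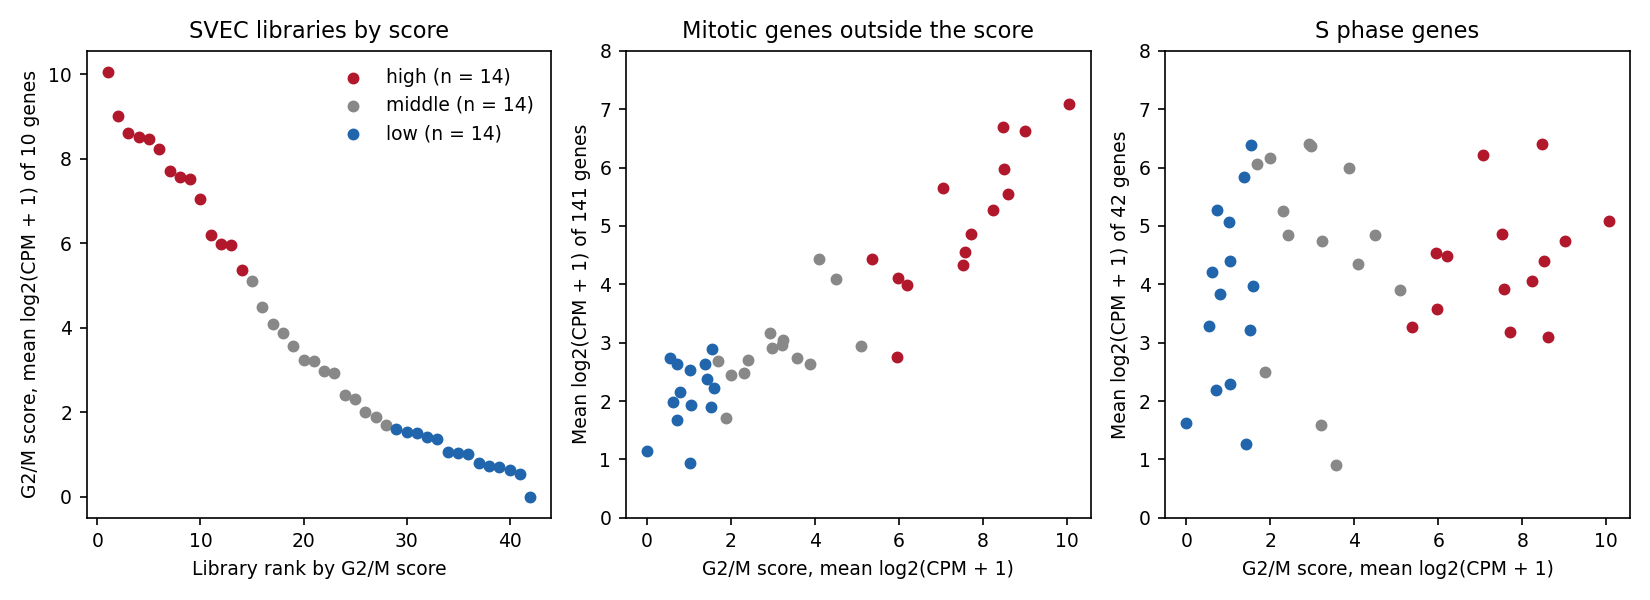
Left, the G2/M score (mean log2(CPM + 1) of 10 genes) of each of 42 SVEC libraries by rank; middle and right, the mean log2(CPM + 1) of 141 mitotic genes outside the score and of 42 S phase genes against the score, 1 point per library. The mitotic mean climbs with the score, from at most 2.89 in low to 7.08 in high libraries, whereas the S phase mean spans 1.27 to 6.38 in low and 3.10 to 6.41 in high libraries.

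The 12 largest higher differences all belonged to these lists, and 2 of the 12 genes separated the groups completely. With counts required in at least 50% of libraries, 4 of the 12 stayed in the comparison and were called. Aurkb, the kinase of the chromosomal passenger complex, was at 11.6 to 1207 CPM (median 414) in the 14 high libraries, was at 0 in all 14 low libraries and had counts in 3 middle ones. Its difference was 8.36 (pooled SD 1.23). Over the summed counts it stood at 487 CPM (exact 95% Poisson interval 473 to 501) in high and 0 CPM (up to 0.409) in low libraries. Against a floor of 3 counts in each low library, which averaged 8.15 CPM, it was at least 59.3-fold higher. Birc5, survivin, a partner of Aurkb in that complex, was at 530 to 1766 CPM in high libraries and at 0 to 504 CPM in low ones, 6 of which had counts. These ranges did not overlap, and the difference was 6.96 (pooled SD 2.63). In the middle group Birc5 was seen in 6 libraries, with a median of 0 and a highest value of 845 CPM.

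Kinetochore and centromere genes were higher as a group. The kinetochore joins each chromosome to spindle microtubules, and its outer part holds the Ndc80 complex of Ndc80, Nuf2, Spc24 and Spc25. Of 34 members 29 passed the filter and 15 were called higher, against 4.23% of all genes. The median difference was 3.61 (3.59 with floors, 3.20 over all members). The list mean was higher in each of the 14 high libraries than in every low library. Spc25 was at 0 to 3933 CPM (median 1495) in high libraries, with counts in 13, and was seen in 1 low library, at 1183 CPM, and in 9 middle libraries. Its difference, 8.97 (pooled SD 2.95), was the largest of all genes compared. Nuf2 had a median of 497 CPM in high libraries, 13 of which had counts, against 3 low libraries with counts and a highest value of 272 CPM. Ndc80 was seen in 12 high, 5 middle and 0 low libraries, which makes it at least 39.3-fold higher over the floor, and Spc24 was also called higher. All 4 subunits of the complex were thus on the higher side. Cenpa, the histone variant that marks centromeres, was at 0 to 1947 CPM (median 713) in high libraries and had counts in 3 low libraries, the highest of them at 967 CPM, inside the high range. Cdca8 and Incenp, which complete the passenger complex with Aurkb and Birc5, were called higher too. Members that passed the filter and were not called included Cenpq (difference 4.34), Knl1 (2.53) and Cenpt (-0.08).

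Kinesins and spindle genes had a list median of 5.09 (4.20 with the 4 members at 0 in every low library set to the floor, 3.90 over all members). Of 31 members 20 passed and 15 were called higher, against 4.23% of all genes. Ckap2, a microtubule-associated spindle protein, had counts in 12 high libraries (median 326 CPM, highest 1006 CPM), in 2 middle libraries and in 1 low library, at 2.06 CPM. Its difference was 7.32 (pooled SD 2.32). Kif22, a kinesin that moves chromosome arms, was seen in 13 high libraries (median 218 CPM), 1 middle and 0 low libraries and was at least 29.2-fold higher over the floor. Cep55, needed for the final cut between daughter cells, was seen in 12 high, 5 middle and 0 low libraries. Nusap1, which bundles spindle microtubules, was at a median of 409 CPM in high libraries and was seen in 2 low ones. Nusap1 overlaps Oip5 in the annotation, and Oip5 was called higher as well, so that reads of the pair could not be told apart if strand was not used in counting. Ckap2l (3.12), Kif20a (2.71), Cep192 (1.96), Ckap5 (1.20) and Kif2a (0.11) passed the filter without a call.

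**Figure D3:**
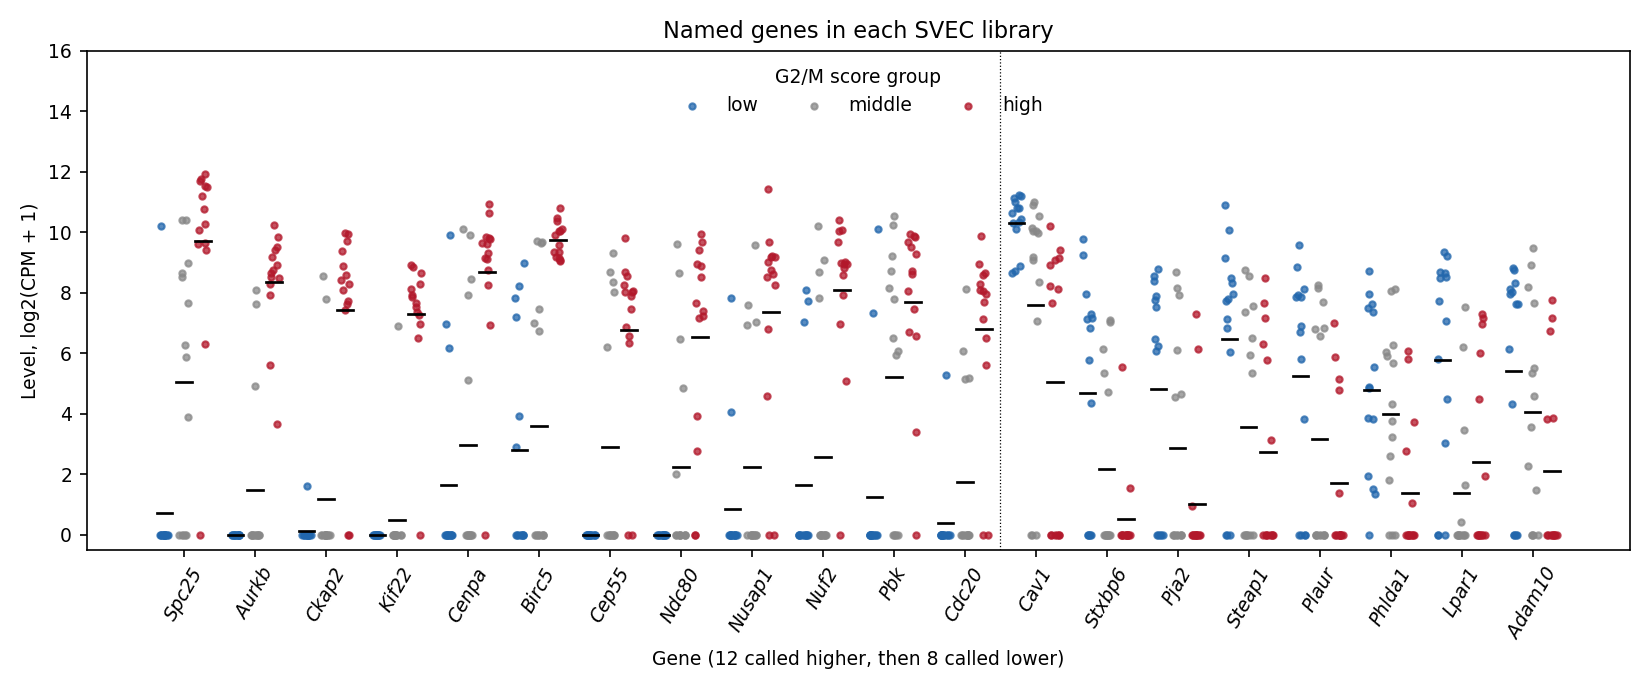
Level of each named gene, as log2(CPM + 1), in each SVEC library of the low (blue), middle (grey) and high (red) groups, with black bars for group means (n = 14 each). The 12 genes left of the dotted line are mostly at 0 in low libraries, and Cav1, first on the right, is at 0 in 6 high libraries and in none of the low ones.

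Promoters of these genes were looked at for the letters that the MuvB complex and the factor NF-Y are known to bind. The cell cycle genes homology region (CHR) was searched as TTTGAA or TTCGAA and the NF-Y box as CCAAT, both on either strand, in windows of 250 bases before to 50 after each transcript start in RefSeq, build GRCm38.p6. Of the 12 named higher genes, the 3 with the largest differences among those holding both motifs are shown. Cav1, the largest lower gene, is shown with no condition on motifs. The 3 were thus picked for their motifs, and nothing is read from their contrast with Cav1. Capitals mark the motifs; ATTGG and TTCAAA are CCAAT and TTTGAA read on the other strand.
Spc25, chr2:69206164-69206463 (minus strand): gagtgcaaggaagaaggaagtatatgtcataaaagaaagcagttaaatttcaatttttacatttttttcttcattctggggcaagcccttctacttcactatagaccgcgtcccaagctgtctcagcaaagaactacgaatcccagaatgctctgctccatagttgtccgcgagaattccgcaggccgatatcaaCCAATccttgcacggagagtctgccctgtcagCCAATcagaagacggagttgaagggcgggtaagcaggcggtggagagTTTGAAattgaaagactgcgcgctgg
Ckap2, chr8:22185770-22186069 (minus strand): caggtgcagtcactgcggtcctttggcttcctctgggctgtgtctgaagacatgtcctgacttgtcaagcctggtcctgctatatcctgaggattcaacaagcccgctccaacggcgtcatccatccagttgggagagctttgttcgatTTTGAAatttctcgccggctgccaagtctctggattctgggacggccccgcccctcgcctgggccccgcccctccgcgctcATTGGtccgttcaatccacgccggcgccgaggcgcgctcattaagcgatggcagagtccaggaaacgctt
Kif22, chr7:127042371-127042670 (minus strand): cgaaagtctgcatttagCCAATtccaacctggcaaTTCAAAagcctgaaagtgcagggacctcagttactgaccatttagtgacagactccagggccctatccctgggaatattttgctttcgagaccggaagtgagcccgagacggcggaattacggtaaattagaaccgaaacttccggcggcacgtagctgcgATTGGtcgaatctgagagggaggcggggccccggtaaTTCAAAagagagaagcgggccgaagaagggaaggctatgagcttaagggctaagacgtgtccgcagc
Cav1, chr6:17306085-17306384 (plus strand): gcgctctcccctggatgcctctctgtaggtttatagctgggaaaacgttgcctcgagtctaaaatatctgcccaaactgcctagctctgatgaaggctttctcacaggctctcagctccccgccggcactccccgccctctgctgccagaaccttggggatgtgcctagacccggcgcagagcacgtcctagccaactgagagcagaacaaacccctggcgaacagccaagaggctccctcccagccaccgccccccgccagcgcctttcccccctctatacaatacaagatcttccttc
In Spc25 the TTTGAA began 25 bases after the start, and the CCAAT boxes began 55 and 23 bases before it. In Ckap2 the TTTGAA began 101 and the ATTGG 20 bases before the start. Kif22 held TTCAAA 215 and 17 bases before the start, with CCAAT 233 and ATTGG 54 bases before it. The table holds 2 Cav1 promoters, and neither had a match to these letters. Matches were not absent from the other named lower genes described below. Of 3 Lpar1 promoters 1 held both motifs, and the promoters of Pja2 and Adam10 held CCAAT without a CHR. Those of Stxbp6, Steap1 and Plaur held neither, and Phlda1 had no promoter in the table.

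Over the sets, a CHR stood in 34 of 57 promoters of mitotic list members called higher (59.6%), in 30.5% of the promoters of all genes called higher, in 7.14% of those of genes called lower, in 14.5% of those of genes that passed the filter and in 19.2% of all 32851 promoters of the table. Of the 9 promoters found for score genes, 8 held one. CCAAT stood in 42 of 57 (73.7%) mitotic promoters against 37.4% of the table, and both motifs stood in 49.1% against 7.52%. The 42 S phase genes had CCAAT in 66.7% and a CHR in 15.2% of their 33 promoters. Cenpa and Cdc20 also held both motifs, and Birc5, Nusap1 and Nuf2 held neither in this window. Cep55 and Ndc80 held a CHR without CCAAT, and Aurkb and Pbk had no promoter in the table. A match is a description of the letters and does not show that a factor was bound.

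Mitotic cyclins, kinases and their partners were called almost throughout. Of 20 members 13 passed the filter and 12 were called higher, against 4.23% of all genes. The median difference was 4.50 (4.48 with the 2 members at 0 in every low library set to the floor, 3.78 over all members). The exception among the 13, Pkmyt1, which holds Cdk1 inactive, had a difference of 1.10. Ccnb2, cyclin B2, was at 0 to 1581 CPM (median 482) in high libraries, 13 of which had counts, and at 0 to 583 CPM in low libraries, 5 of which had counts. Ccna2, cyclin A2, reached 401 CPM in high and 3.48 CPM in low libraries. Cks2, a small subunit of the Cdk1 complex, had counts in all 14 high libraries (324 to 2828 CPM) and in 8 low ones (median 52.8 CPM), and the ranges overlapped. Melk, a kinase of mitotic cells, had counts in 12 high libraries (median 207 CPM) and in none of the low ones. Pbk, another mitotic kinase, was less tied to the high group, with counts in 13 high, 9 middle and 2 low libraries, and 1 low library at 1109 CPM was above every high library. Bub1 and Bub1b of the spindle checkpoint, and Cdc25c, the phosphatase that activates Cdk1, were called higher with smaller levels, Cdc25c at a median of 4.08 CPM in high and 0.72 CPM in low libraries. Both Cdc25c medians lie under the 8.15 CPM that a floor of 3 counts averaged in low libraries, so its call rests on few counts.

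The anaphase-promoting complex list had fewer calls. Of 17 members 15 passed and 4 were called higher, where 4.23% of all genes were called higher. The 4 were the activators Cdc20 and Fzr1, securin (Pttg1) and the inhibitor Fbxo5. Cdc20 had counts in 12 high libraries (median 256 CPM, highest 930 CPM) and in 1 low library at 37.4 CPM, with a difference of 6.44 (pooled SD 2.39). It overlaps Elovl1 in the annotation. Pttg1 was at 309 to 3506 CPM (median 1220) in high libraries and at 0 to 1791 CPM (median 42.1) in low libraries, 7 of which had counts. Fbxo5 had counts in 9 high and 2 low libraries. Fzr1 had a difference of 2.38 at a separation of 75.5%, just inside the rule. The core subunits were not called, with differences such as 2.56 for Anapc10, 2.42 for Cdc23, 1.04 for Cdc27 and -0.04 for Anapc11. The list median, 1.38, was nearer to the 0.51 of all genes than that of the kinases.

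Condensin and chromatin genes included several that were present in every cell. Of 26 members 25 passed and 12 were called higher, against 4.23% of all genes (median difference 2.73). Hmgb2, a DNA-bending chromatin protein, was at 973 to 5313 CPM (median 2129) in high libraries and at 5.79 to 1697 CPM (median 455) in low ones. It had counts in all 28 libraries, and its separation was 97.4%. H2az1, a histone variant, also had counts in all 28, with medians of 2648 and 1051 CPM and a difference of 1.08 (pooled SD 0.90). Kpna2, a nuclear import receptor, was at 81.0 to 5116 CPM (median 919) in high and 0 to 430 CPM (median 70.2) in low libraries. Condensin, which compacts chromosomes, had Smc2 (4.35), Ncaph (3.82), Ncapg, Ncapd2 and Ncapd3 called higher, whereas Smc4, the partner of Smc2, had a difference of 2.12 without a call. The lamina genes Lmnb1 (-0.58) and Lmnb2 (0.41) were not called.

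Cytokinesis genes showed 1 call among the 8 of 13 members that passed, where 4.23% of all genes were called higher. The median difference was 1.02, and 1.78 over all 13 members. Cep55, which acts in the final cut, was counted with the kinesins and spindle genes. Racgap1, of the centralspindlin complex that sets the division plane, was at 72.7 to 1435 CPM (median 387) in high and 0 to 248 CPM (median 22.6) in low libraries, with a difference of 4.87 (pooled SD 2.74). Anln, the furrow scaffold anillin, had a difference of 2.53 with a separation of 67.3% and was not called. Rhoa (-0.66) and Cdc42 (0.67), small GTPases used through the whole cycle, had counts in 10 and 14 high and in 11 and 13 low libraries.

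The list of tubulins, the building blocks of microtubules, and of stathmin had 5 calls among 10 members that passed, 4 of them tubulins. Of all genes, 4.23% were called higher. All 10 members had a difference above the all-gene median. Tubb4b was at 0 to 1645 CPM (median 896) in high and 0 to 419 CPM (median 45.4) in low libraries, with a difference of 5.22 (pooled SD 3.36). Tubb6 had medians of 663 and 159 CPM and a difference of 3.19. Tuba1c (1.03), Tubb5 (1.42) and Stmn1 (1.02), the microtubule destabiliser stathmin, were called with small differences and had counts in at least 13 of the 14 libraries of each group. Tuba4a (3.36) and Tubg1 (2.85) had larger differences without a call. Tubulin genes are close copies of each other, and how reads shared among them were counted is not given in the sources used here.

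**Figure D4:**
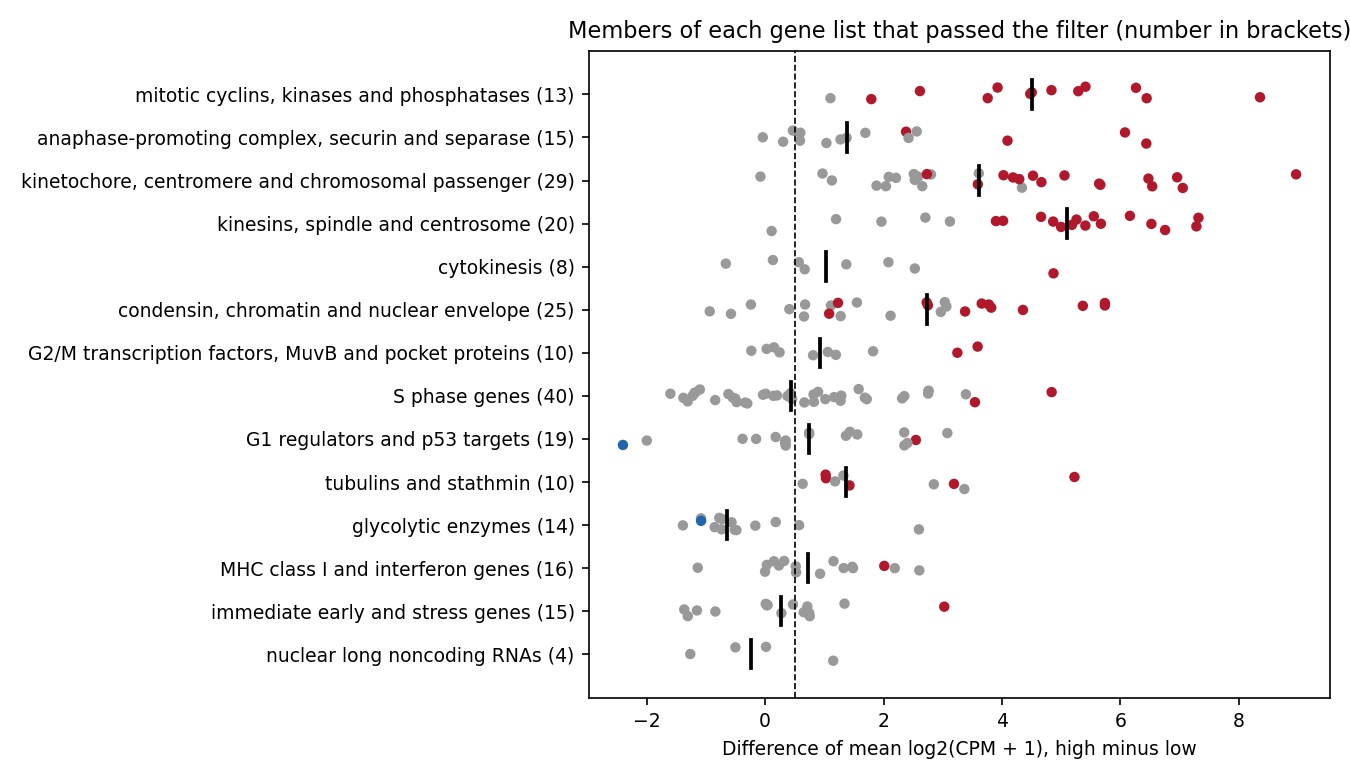
Difference of mean log2(CPM + 1), high minus low, for each list member that passed the filter (points; red called higher, blue called lower, grey not called), with the list median as a black bar and the median of all genes (0.51) as a dashed line. Kinesins (5.09), cyclins and kinases (4.50) and kinetochore genes (3.61) lie to the right of the dashed line, and glycolytic enzymes (-0.65) to the left of it.

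The regulators of the program were near the limit of detection. Of 22 transcription factors, MuvB subunits and pocket proteins, 10 passed the filter. Foxm1 and Lin9 were called higher, where 4.23% of all genes were called higher. Foxm1, the activator named above, had counts in 8 high libraries (median 18.7 CPM, highest 202 CPM), 2 middle and 1 low library, at 0.94 CPM. Its difference was 3.25 (pooled SD 2.32). Lin9, a MuvB subunit, had counts in 9 high and 1 low library. Foxm1 was called in 7 of the 11 settings that gave it a value and Lin9 in 9 of 12. The other 8 were not called: Tfdp1, the dimer partner of E2F proteins, had 1.82, Lin37 1.19, Lin52 1.06, Rbl1 0.81, Tfdp2 0.24, Rbbp4 0.15, E2f4 0.03 and Nfyc -0.23. The list median was 0.93, and 0.15 with the residual score.

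S phase genes did not follow the score. The list holds the replication and nucleotide genes that rise before G2. Of 42 members 40 passed, 2 were called higher and 0 lower, where 4.23% of all genes were called higher. The median difference was 0.44 against 0.51 over all genes. The median of the S phase genes was below 0 with the residual score (-0.29), for the upper 21 against the lower 21 libraries (-0.39), in libraries of at least 200000 counts (-0.27) and relative to the all-gene median (-0.06). The list mean per library was 3.10 to 6.41 in high and 1.27 to 6.38 in low libraries, 1 high library was above every low one, and the Spearman correlation with the score was 0.153 over 42 libraries and -0.38 within the 14 middle ones. It was 0.601 with genes detected. The 2 calls were Rrm2 (4.84) and Tyms (3.54), which make deoxynucleotides. Rrm2 had counts in 12 high, 8 middle and 4 low libraries and Tyms in 14, 13 and 9. Of the 40, 25 had a difference above 0 and 15 below 0. Among members without a call, Rad51ap1 had 3.39, Clspn 2.76, Cdc45 1.28 and Mcm5 0.20. Others were on the negative side: Mcm2 had medians of 68.5 CPM in high and 310 CPM in low libraries (difference -1.38, pooled SD 3.40), Mcm6 137 and 520 CPM (-0.62), and Pcna, the sliding clamp, 255 and 517 CPM (-1.18). The low group thus spanned nearly the whole range of S phase levels seen in the 42 libraries.

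Genes called lower were fewer, and Cav1 had the largest difference among them. Cav1, caveolin-1, the coat protein of the small membrane pits called caveolae, was at 400 to 2398 CPM (median 1475) in all 14 low libraries. In the high group 8 libraries had counts and the range was 0 to 1177 CPM (median 241), and the middle group lay between them with a median of 799 CPM and 11 libraries with counts. The groups overlapped, but 10 of the low libraries were above every high one. The difference was -5.25 (pooled SD 3.30) and the separation 8.16%. Over summed counts Cav1 stood at 405 CPM (exact 95% Poisson interval 392 to 418) in high and 1593 CPM (1567 to 1620) in low libraries. It was called in all 13 settings tried and with each of the 28 libraries left out in turn.

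The other 7 named lower genes rested on detection in more low than high libraries. Stxbp6, a SNARE-binding protein, had counts in 2 high and 9 low libraries, with medians of 0 and 84.0 CPM and a difference of -4.18. Phlda1 had counts in 5 high and 13 low libraries, with medians of 0 and 28.3 CPM and the second lowest separation of the 8, 16.1%. Plaur, the urokinase receptor at the cell surface, had counts in 5 high and 10 low libraries (difference -3.52), and Lpar1, a receptor for lysophosphatidic acid, in 6 and 11 (-3.37). Adam10, a protease that sheds surface proteins, had counts in 5 and 10 (-3.31), Pja2, a ubiquitin ligase, in 3 and 9 (-3.81), and Steap1, a membrane metalloreductase family member, in 6 and 11 (-3.70). Several of these calls were lost under other settings: Plaur was called in 6 of 13 settings and Lpar1 in 5 of 13, and Pja2, Plaur and Adam10 in 22 of the 28 fits with a library left out. All 8 had counts in at least 2 high libraries, so that none was confined to the low group.

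Cell cycle inhibitors and p53 targets gave 1 call in each direction among the 19 of 26 members that passed. Of all genes, 4.23% were called higher and 0.485% lower. Cdkn2a, the locus of p16 and p19Arf, was called lower, in 9 of the 12 settings with a value. It had counts in 2 high, 6 middle and 10 low libraries, reaching 131 CPM in high and 140 CPM in low ones, with a difference of -2.40 (pooled SD 2.23). Ccnd2, cyclin D2, had medians of 167 CPM in high and 42.7 CPM in low libraries and was called higher (2.55). Cdkn2d (3.08), Mdm2 (2.40), Ccng1 (2.35) and Trp53 (2.35) were not called, and the list median, 0.74, was 0.35 with floors.

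Glycolytic enzymes tended below the other genes. Of 14 of 15 members that passed, 1 was called lower and 0 higher, where 0.485% of all genes were called lower. The median difference was -0.65, and 12 of the 14 lay under the all-gene median. Differences ran from -1.39 to 2.60, with 11 below 0 and 3 above. Pfkm had the largest difference in size, and it was on the higher side (2.60), without a call. Pfkl and Hk1 also had larger differences in size than Aldoa, without a call. Only Aldoa passed the rule, in 8 of 13 settings and in 26 of 28 fits with a library left out. In C10, scored in the same way, the list median was 0.21 and none of 14 members was called. Aldoa, aldolase A, was at 234 to 3015 CPM (median 1089) in high and 671 to 4809 CPM (median 2352) in low libraries, a difference of -1.08 (pooled SD 0.92) between ranges that overlapped. The summed level of the list was 6838 to 26154 CPM (median 12927) in high and 4254 to 45982 CPM (median 23512) in low libraries. As the values are shares of a library, fewer transcripts of 1 kind and more of the others could not be told apart.

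Lists chosen for other states of the cell held 0 or 1 call each. As 4.23% of all genes were called higher, nothing is read from these counts. MHC class I and interferon genes had 1 call among 16 (Isg15, 2.01) and a median of 0.73. Immediate early and stress genes had 1 call among 15 (Atf4, a stress transcription factor, 3.03), a median of 0.28, and Fos at -1.37 without a call. The sign of the median of the immediate early and stress genes and of the nuclear noncoding RNAs changed with the setting. No nuclear noncoding RNA of 4 was called, and their median was -0.24 (-1.65 with the residual score); Malat1 was at 0 to 74203 CPM in high and 74.6 to 60466 CPM in low libraries, a range within each group far wider than the difference of -0.50.

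The C10 libraries, which played no part in choosing the SVEC groups, were scored in the same way, and their 14 highest and 14 lowest were set side by side. Their scores were 4.73 to 9.40 and 0 to 1.27, and they were deeper, with medians of 2548142 and 1450412 gene counts. Of 8917 genes compared, 574 were called higher (6.44%) and 36 lower (0.404%), with an all-gene median of 0.42. Of the mitotic list members, 87 of 114 that passed were called higher and 0 lower, with a median of 3.66. Members called higher in both lines numbered 50, which is 84.7% of those called in SVEC and 57.5% of those called in C10. Over all members that passed, 87 of 114 were called in C10 and 59 of 110 (53.6%) in SVEC. As most members were called in each line, nothing is read from this overlap. All 12 named higher genes were called higher in C10 too, for example Spc25 at 7.97, Aurkb at 6.63 and Birc5 at 8.64.

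S phase genes and the genes called lower in SVEC had the following values in C10. In C10, 25 of 36 S phase genes were called higher with a median difference of 3.22, against 2 of 40 and 0.44 in SVEC. Mcm5 had 5.95, Mcm4 4.76, Pcna 3.73 and Mcm2 3.54 in C10, and 0.20, -1.22, -1.18 and -1.38 in SVEC. Rad51ap1 had 4.34 in C10 and 3.39 in SVEC. The C10 list mean was 2.27 to 6.17 in high and 0.53 to 2.09 in low libraries, without overlap. None of the 8 named lower genes was called in C10, where 0.404% of all genes were called lower, so that nothing is read from this count; the 8 were also chosen for their SVEC values. Cav1 had a difference of 1.52 in C10. Genes detected were 5427 to 9355 in the high and 3271 to 6989 in the low C10 group, a wider gap than in SVEC, and the part of that gap in these values was not tested. The difference between the lines was not tested either, since each line is 1 sample.

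**Figure D5:**
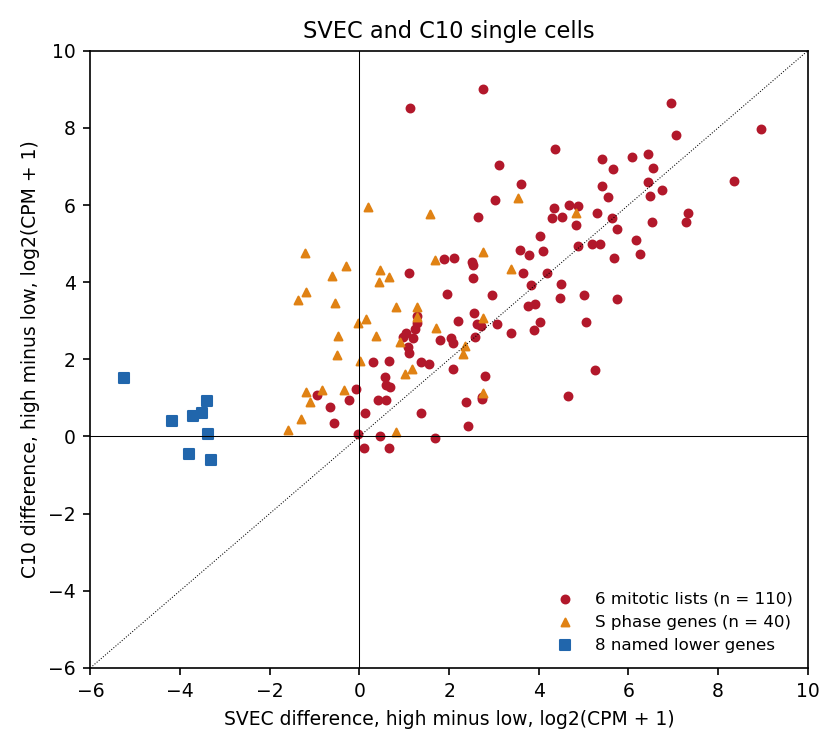
Difference of mean log2(CPM + 1), high minus low score, in SVEC (x axis) and C10 (y axis) for members of 6 mitotic lists (red circles, 110), S phase genes (orange triangles, 40) and the 8 named lower genes (blue squares); the dotted line marks equal values. Mitotic genes lie mainly on the positive side in both lines, with a lowest SVEC difference of -0.94. S phase genes, with a median of 0.44 in SVEC, reach values such as 5.95 in C10 (Mcm5, 0.20 in SVEC).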

How the data were processed

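RNA of SVEC and C10 single cells was sequenced as single reads of 150 bases from SMART-Seq v4 Plus cDNA, per the labels' protocols. The deposited files hold whole-number read counts per gene for each library, with 5 closing counters of unassigned reads that were kept out of totals. FastQC, STAR and HTSeq are named in the submitters' processing notes; versions, genome build, annotation and strand setting are not given in the sources used here, and molecular identifiers are not mentioned. The members, gene lists and rules were chosen with earlier results of these data known.

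Counts were scaled to CPM with Python 3.11.15, numpy 2.4.6 and pandas 2.3.3, and log2(CPM + 1) was compared between 14 high and 14 low libraries over genes with a count in at least 25% of eligible libraries. The size rule (difference of at least 1, separation of at least 75% or at most 25%) was run on simulated data first. No test was fitted, because a library is 1 cell and a group is then 1 sample; edgeR 4.0.16 (R 4.3.3) served only for the TMM factors of one alternative. Named genes were the 10 score genes, the 12 largest positive and 8 largest negative differences among called genes, and up to 4 members of each list with the largest differences; other members and genes were named after their values were seen. Poisson intervals are exact at 95%. RefSeq tables of GRCm38.p6 gave names, overlaps, 37 mitochondrial genes and promoters, matched by symbol. The closest 2 of 861 pairs of SVEC libraries differed by a chi-square of 24.1 per degree of freedom, so each library was kept as its own. No sequencing batch was given.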

Additional observations from a re-analysis of the deposited data

How the results depend on the processing

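No paired analysis was possible because each replicate number belongs to 1 cell and the high and low groups share none. Calls higher and lower numbered 173 and 172 with the residual score, 688 and 52 for the 10 highest against the 10 lowest, 99 and 16 for the upper 21 against the lower 21, 180 and 68 in libraries of at least 200000 counts, 285 and 19 with a score over 5 markers, and 66 and 6 with a separation of at least 85% or at most 15%. With each of the 28 libraries left out in turn they ranged from 265 to 362 and from 30 to 50, the 50 without SVEC library 44. The median difference of condensin and chromatin genes was 1.52 with the residual score, 1.28 for 21 against 21, 1.29 on log2(CPM + 10) and 1.85 without libraries of over 55% unaligned reads, a limit chosen after seeing the data. For kinetochore genes it was 2.38 for 21 against 21, 2.33 at 200000 counts and 2.21 on log2(CPM + 10). For cyclins and kinases it was 6.39 for 10 against 10 and 2.63 on log2(CPM + 10), for kinesins 2.93 on log2(CPM + 10), and for tubulins 2.78 for 10 against 10. With the residual score, transcription factors had 0.15 and nuclear noncoding RNAs -1.65. The cause of these shifts was not tested, apart from the number of libraries and the pseudocount that the settings themselves change. The medians of S phase, immediate early and stress, and nuclear noncoding RNA lists, all near 0, changed sign under some settings, ranging from -0.39 to 0.86, from -0.45 to 0.46 and from -1.65 to 0.34; no other list median and no named gene did. Of 250 values of named genes under other settings 241 moved by less than 1 SD. A floor of 3 counts averaged 8.15 CPM in low libraries, and calls between groups that both lie under it, such as Med26 with means of 1.99 and 7.34 CPM, rest on few counts.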

Other observations

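Outside every list stood 217 genes called higher and 31 called lower, described here after their values were seen. Among the largest higher differences were Cdkn3 (6.29), a phosphatase that acts on Cdk1 and Cdk2, Shcbp1 (6.07), Knstrn (5.89), a kinetochore adaptor, Cip2a (5.45), Asf1b (5.25), a histone chaperone, and Rangap1 (5.21), which activates the GTPase of the Ran cycle. These 6 were also called higher in C10. Psph, the last enzyme of serine synthesis, had counts in 12 high and 2 low libraries (difference 5.21), Pfdn4, a prefoldin subunit, in 13 and 5 (5.06), and Dynlt3, a dynein light chain, in 13 and 5 (4.97). None of these 3 was called in C10, where 6.44% of all genes were called higher and the differences of these 3 were 0.56, 0.73 and -0.88.

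On the lower side, several genes were present in nearly every cell. Prkar1a, a regulatory subunit of protein kinase A, had counts in all 28 libraries, with medians of 333 CPM in high and 760 CPM in low ones, a difference of -1.34 (pooled SD 0.67) and a separation of 6.12%, further from an even split than the 8.16% of Cav1. Vim, the intermediate filament vimentin, had medians of 608 and 1299 CPM (difference -1.16). Rhoc, a small GTPase of the actin cytoskeleton, had counts in 12 high and 14 low libraries (-2.24). Fscn1, the actin bundler fascin, was seen less often, with counts in 8 high and 12 low libraries (-2.21). Its medians were 1.34 and 21.1 CPM, and its separation of 25% was at the limit of the rule. Cxcl12, a secreted chemokine, had medians of 685 and 1624 CPM (-1.99). None of these 5 was called in C10, where 0.404% of all genes were called lower.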
